A study of Mus musculus with 24 samples.

Results

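The genes described here are 6 matrix metalloproteinase genes (Mmp2, Mmp3, Mmp9, Mmp11, Mmp14 and Mmp23) and the 4 genes of their tissue inhibitors (Timp1, Timp2, Timp3 and Timp4). They were taken by name from 35727 genes of a table of RNA sequencing counts of 24 libraries. All 10 were among the 14804 genes that passed the filter on low counts, Mmp9 through its day 7 libraries, where it was highest in SEG. The samples were mouse heart fibroblasts grown in EGM2, a medium made for endothelial cells. Labels name the conditions SEG, Sox17, Erg and control, each with 3 libraries at day 7 and 3 at day 3, and the study compared them for endothelial gene expression. Control cells are labelled fibroblast and the cells of the other conditions iEC. Neither the way the factors were introduced nor the strain, age or sex of the mice is given in the sources used here, and SEG is not spelled out. Whether replicate libraries stem from different cultures or mice is not stated. The p-values therefore reflect only how far these libraries spread, and that spread may be technical.

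Total counts ran from 18794422 to 44586227 per library, and levels are given as CPM, the count scaled to a common library size. Sox17 stood at 461 to 819 CPM in SEG and 616 to 1322 CPM in Sox17 at day 7, with 2 to 8 counts per library in Erg and 0 in control. Erg stood at 836 to 1039 CPM in SEG and 4327 to 5809 CPM in Erg at day 7, with 0 to 2 counts elsewhere at that day. Fibroblast markers (10 genes, none at 0 counts) summed to 17591 to 19359 CPM in SEG, 6678 to 11031 in Sox17, 10303 to 11593 in Erg and 23197 to 24735 in control at day 7. Such a sum is led by its most abundant genes. Among called markers with at least 10 CPM, the largest log2 changes against control of either sign were Lum (−6.16), Pdgfra (−4.52) and Dcn (−4.20) in SEG. They were Lum (−6.61), Dcn (−4.47) and Pdgfra (−3.36) in Sox17, and Lum (−1.95), Pdgfra (−1.93) and Col1a2 (−1.50) in Erg. Endothelial markers (10 genes) summed to 2062 to 2374 CPM in SEG, 159.7 to 382 in Sox17, 157 to 166 in Erg and 6.24 to 7.87 in control at day 7, with Cldn5, a tight junction claudin, at 0 counts in Sox17 and control. Replicate 1 of Sox17 and replicate 1 of SEG at day 7 stood apart: ribosomal protein genes took 7.50% and 5.20% of their counts, against 3.04% to 4.75% in the other 22 libraries. Sox17 RNA was at 616 CPM in replicate 1 of Sox17, against 1303 and 1322 CPM in its group. In replicate 1 of SEG it was at 461 CPM, against 819 and 816 CPM. Both libraries are called the outlying day 7 libraries, and calls that change without them are given both ways.

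Matrix metalloproteinases are zinc-dependent enzymes that cut collagens, proteoglycans, basement membrane and other proteins outside the cell. Most are made as inactive proenzymes and start to work when the propeptide is removed. TIMP proteins bind the active site and block it, and TIMP2 also joins MMP14 at the cell surface to activate the proenzyme of MMP2. In the heart, fibroblasts are a main source of these enzymes, while endothelial cells use them to loosen basement membrane as vessels sprout and rely on TIMPs to hold new vessels stable. Levels of RNA do not tell how much active enzyme was present.

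The abundant proteases fell and the inhibitors split. At day 7, Mmp2 and Mmp3 were lower in SEG, Sox17 and Erg than in control, while Timp3 and Timp4 were far higher in Erg. Mmp9 was high in SEG at day 7, where each library stood above every library of the other groups. Tests of these differences follow gene by gene.

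The stretches upstream of 3 of the genes are shown because each holds a match to a searched motif of AP-1 or ETS factors, the family of Erg. RefSeq's promoter table (GRCm38.p6) had entries for 8 of the 10 genes, and the windows are the 250 bases before the start of the transcript. Capitals mark a match to a motif searched on both strands: TGANTCA, the core site of AP-1, in Mmp3 (plus strand, chr9:7445572-7445821), and AGGAAGT, a site of ETS factors such as Erg, read here or as its reverse complement, in Timp4 (minus strand, chr6:115252206-115252455) and Timp1 (plus strand, chrX:20869916-20870165).

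Mmp3: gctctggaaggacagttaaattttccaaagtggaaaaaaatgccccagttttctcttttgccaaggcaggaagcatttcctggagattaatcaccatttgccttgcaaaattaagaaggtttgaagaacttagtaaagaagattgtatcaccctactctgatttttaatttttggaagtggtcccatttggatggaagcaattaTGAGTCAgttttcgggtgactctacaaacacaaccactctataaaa

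Timp4: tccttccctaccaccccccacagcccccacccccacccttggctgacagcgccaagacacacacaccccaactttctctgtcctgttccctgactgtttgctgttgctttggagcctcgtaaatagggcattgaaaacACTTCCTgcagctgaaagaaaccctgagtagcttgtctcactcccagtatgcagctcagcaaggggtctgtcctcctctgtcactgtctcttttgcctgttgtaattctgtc

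Timp1: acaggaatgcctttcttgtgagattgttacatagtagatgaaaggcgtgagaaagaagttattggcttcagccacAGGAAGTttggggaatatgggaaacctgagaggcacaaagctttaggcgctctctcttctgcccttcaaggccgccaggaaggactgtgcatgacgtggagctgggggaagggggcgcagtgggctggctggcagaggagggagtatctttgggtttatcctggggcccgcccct

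The AP-1 letters of Mmp3 lay at −46 to −40 from the start, and 6.75% of 32851 promoter windows of the same length held them. The ETS letters lay at −112 to −106 in Timp4 and at −175 to −169 in Timp1, and 7.69% of windows held them. A Sox motif, ACAATG, was present in 10.7% of windows and, among the entries of these genes, in a window of Mmp23, at −180 to −175. None of the 3 motifs was in the windows of Mmp11, Mmp14, Timp2 or Timp3. The ETS and Sox motifs were chosen after values were seen, no matches overlap in these windows, and a match describes the letters and nothing more. Only the letters given were searched, so close variants are left unmarked, such as aggaagc in the Mmp3 window. A window without a match may therefore hold other forms of such sites.

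Among the gelatinases, which cut denatured collagen and basement membrane collagen, Mmp2 (ENSMUSG00000031740, chromosome 8, 92827291 to 92853420, plus strand) was the most abundant in these cells. At day 7 it had 438, 446 and 455 CPM in SEG, 347, 364 and 339 in Sox17, 1079, 974 and 1081 in Erg and 3987, 3728 and 3462 in control. The control libraries at day 7 stood above all other libraries of the study. At day 3 it had 446, 388 and 448 CPM in SEG, 308, 282 and 299 in Sox17, 889.7, 858 and 851 in Erg and 869, 994 and 943 in control. Erg and control came close together there, while SEG and Sox17 lay below them. Against control at day 7, Mmp2 fell in SEG (log2 change −3.06 ± 0.0812, adjusted p = 1.04e-16; errors of log2 changes are approximate standard errors, and p-values are from edgeR's quasi-likelihood test with Benjamini-Hochberg adjustment over all tested genes), in Sox17 (−3.41 ± 0.0825, adjusted p = 5.16e-17) and in Erg (−1.83 ± 0.0774, adjusted p = 3.55e-13). At day 3 it fell in SEG (−1.13, adjusted p = 2.14e-10) and Sox17 (−1.66, adjusted p = 6.93e-13), and the Erg difference did not pass (−0.11, adjusted p = 0.249). The control itself rose between the days, to 3726 ± 263 CPM at day 7 against 935 ± 63.0 CPM at day 3 (SD, n = 3; log2 change 1.99, adjusted p = 1.15e-12), and the 3 day 7 comparisons share those control libraries. SEG held 446 ± 8.83 CPM at day 7 and 427 ± 34.0 CPM at day 3, a difference that did not pass (log2 change 0.06, adjusted p = 0.616).

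Mmp9 (ENSMUSG00000017737, chromosome 2, 164940780 to 164955850, plus strand), the gelatinase best known from leukocytes and remodelling tissue, was scarce outside SEG at day 7. Its day 7 libraries held 16.2, 12.4 and 24.2 CPM in SEG, 0.0681, 0.136 and 0.151 in Sox17, 1.43, 1.27 and 1.58 in Erg and 0.170, 0.818 and 0.508 in control. All 3 SEG libraries lay above every other library. Its day 3 libraries held 0.102, 0.113 and 0.187 CPM in SEG, 0.162, 0.235 and 0.210 in Sox17, 0.169, 0.146 and 0.231 in Erg and 0.279, 0.198 and 0.307 in control, which were 2 to 8 counts per library. At that day the SEG libraries lay below the control libraries, and Sox17 and Erg overlapped both. At day 7, Mmp9 rose in SEG (log2 change 5.08 ± 0.328, adjusted p = 8.24e-11) and in Erg (1.48 ± 0.346, adjusted p = 0.00150) and fell in Sox17 (−2.14 ± 0.467, adjusted p = 0.000680), the last resting on 3 to 5 counts per library in Sox17 and 3 to 18 in control. SEG was higher than Erg at day 7 (3.61, adjusted p = 2.27e-09) and higher than Sox17 (7.22, adjusted p = 8.18e-12). No day 3 difference from control passed. Macrophage markers (15 genes, none at 0 counts) summed to 238 to 319 CPM in SEG, 164 to 266 in Sox17, 846 to 879.5 in Erg and 166 to 214 in control at day 7. Of these, 6 rose and 2 fell in SEG, against 14 and 1 in Erg, where Mmp9 was lower than in SEG. The shares of all tested genes called were 44.3% in SEG and 48.5% in Erg. Neutrophil markers (10 genes) summed to 0.407 to 0.717 CPM in SEG, 0.265 to 0.681 in Sox17, 3.47 to 4.05 in Erg and 1.02 to 1.98 in control. S100a8, S100a9, Ly6g, Elane, Retnlg and Camp were at 0 counts in SEG. Endothelial markers at day 7, given above, were highest in SEG. The part of any of these cells in the Mmp9 level was not tested. In RNA from many cells, fewer cells of a type and less RNA per cell cannot be told apart, here and below.

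The stromelysins cut a wide range of matrix proteins, and Mmp3 (ENSMUSG00000043613, chromosome 9, 7445822 to 7455975, plus strand) is the one best known from connective tissue cells. At day 7 Mmp3 stood at 45.7, 38.8 and 38.7 CPM in SEG, 125, 79.2 and 79.0 in Sox17, 504, 538 and 600.1 in Erg and 1716, 1631 and 1624 in control. The 4 conditions did not overlap, and SEG was the lowest. At day 3 Mmp3 stood at 314, 305 and 351 CPM in SEG, 179.9, 203 and 195 in Sox17, 423, 447 and 466 in Erg and 1832, 1906 and 1997 in control. There was again no overlap, but Sox17 lay below SEG. Mmp3 fell against control in all 6 comparisons. At day 7 the log2 change was −5.34 ± 0.157, adjusted p = 4.82e-16 in SEG, −4.14 ± 0.148, adjusted p = 8.31e-15 in Sox17 and −1.60 ± 0.133, adjusted p = 5.91e-09 in Erg. At day 3 it was −2.56, adjusted p = 7.22e-12 in SEG, −3.31, adjusted p = 2.40e-13 in Sox17 and −2.10, adjusted p = 1.35e-10 in Erg. SEG and Sox17 changed places between the days: SEG stood below Sox17 at day 7 (−1.20, adjusted p = 4.53e-07) and above it at day 3 (0.75, adjusted p = 0.000158). AP-1, the dimer of Fos and Jun proteins that binds the motif printed above, had 9 tested subunit genes. Of these, 3 rose and 0 fell in SEG at day 7, 3 and 1 in Sox17, and 3 and 3 in Erg. Of all tested genes, 44.3%, 54.5% and 48.5% were called there in that order. Jun stood at 182 ± 5.05 CPM in SEG, 169 ± 39.0 in Sox17, 116 ± 1.75 in Erg and 42.0 ± 3.49 in control at day 7, higher in each (log2 changes 2.12, 2.01 and 1.47 in that order). Fos fell in Erg (−1.39) and rose in SEG (0.54) and Sox17 (0.68) at day 7. At day 3 Fos fell in SEG (−0.75), Sox17 (−0.51) and Erg (−1.68), and Junb fell in Sox17 (−1.24). Over the list, 3 rose and 3 fell in SEG, 2 rose and 3 fell in Sox17 and 3 rose and 2 fell in Erg at day 3. The shares of all tested genes called at day 3 were 40.2%, 40.4% and 46.1% in that order.

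Mmp11 (ENSMUSG00000000901, chromosome 10, 75923222 to 75936496, minus strand), stromelysin 3, a furin-activated enzyme with weak action on matrix, went the other way in SEG. Mmp11 libraries of day 7 had 72.8, 64.5 and 60.7 CPM in SEG, 54.9, 48.8 and 45.0 in Sox17, 16.7, 19.7 and 19.9 in Erg and 40.1, 33.5 and 33.9 in control. Those of day 3 had 66.6, 59.7 and 62.1 CPM in SEG, 39.2, 36.3 and 35.6 in Sox17, 33.2, 33.7 and 31.6 in Erg and 29.2, 31.6 and 35.1 in control. SEG was above control and Erg at either day without overlap, and Erg at day 7 was below every other library. Mmp11 rose in SEG at day 7 (log2 change 0.88 ± 0.101, adjusted p = 4.47e-07) and day 3 (0.97 ± 0.102, adjusted p = 1.50e-07) and in Sox17 at day 7 (0.47 ± 0.101, adjusted p = 0.000579), and fell in Erg at day 7 (−0.93 ± 0.103, adjusted p = 2.98e-07). The Sox17 rise was lost with only the groups compared in the fit (0.46, adjusted p = 0.0601) and passed without both outlying day 7 libraries (0.43, adjusted p = 0.000181). In Sox17 at day 3 its log2 change was 0.21, adjusted p = 0.107, which passed without both outlying day 7 libraries (0.22, adjusted p = 0.0250), and in Erg at day 3 0.04, adjusted p = 0.802. Its exons share 155 bases with Chchd10 on the opposite strand, which had 13.7 ± 5.47 CPM in SEG and 10.04 ± 0.588 CPM in control at day 7. The strand setting of the counting is not given in the sources used here, so reads from the exon bases that such a pair shares cannot be told apart. Mmp11 has 2778 exon bases.

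At the cell surface, Mmp14 (ENSMUSG00000000957, chromosome 14, 54431612 to 54445364, plus strand) encodes a membrane-type enzyme that cuts fibrillar collagen and activates the proenzyme of MMP2. Mmp14 libraries of day 7 had 792, 689.8 and 653 CPM in SEG, 1023, 705 and 700.1 in Sox17, 630.0, 597 and 646 in Erg and 1139.7, 1087 and 1127 in control. Those of day 3 had 749.7, 704 and 750.1 CPM in SEG, 801, 800.5 and 807 in Sox17, 1245, 1267 and 1228 in Erg and 1222, 1310.0 and 1258 in control. Replicate 1 of Sox17 at day 7 stood above the other Sox17 libraries, close to control. At day 7 Mmp14 fell in SEG (log2 change −0.65 ± 0.107, adjusted p = 4.24e-05), in Sox17 (−0.47 ± 0.107, adjusted p = 0.00107) and in Erg (−0.84 ± 0.108, adjusted p = 2.17e-06). The Sox17 fall was lost with only the groups compared in the fit (−0.47, adjusted p = 0.124). It passed without both outlying day 7 libraries (−0.63, adjusted p = 5.81e-11). The falls were present at day 3 in SEG (−0.78, adjusted p = 5.73e-06) and Sox17 (−0.65, adjusted p = 4.47e-05) and did not pass in Erg (−0.02, adjusted p = 0.909), where Mmp14 fell between the days (−0.998, adjusted p = 7.22e-07). Against the span of Mmp2 and Mmp3, Mmp14 moved little: all its group means lay between 624 ± 24.99 and 1263 ± 44.1 CPM.

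Mmp23 (ENSMUSG00000029061, chromosome 4, 155650655 to 155653384, minus strand), a cysteine-array enzyme held in the membrane by its propeptide, was lower wherever a factor was present. Mmp23 libraries of day 7 had 50.4, 33.4 and 32.2 CPM in SEG, 64.5, 21.3 and 22.1 in Sox17, 37.6, 40.5 and 46.7 in Erg and 125, 126 and 125 in control. Those of day 3 had 38.0, 35.4 and 34.99 CPM in SEG, 21.4, 25.2 and 24.5 in Sox17, 48.2, 58.3 and 52.4 in Erg and 94.2, 92.3 and 99.2 in control. Replicate 1 of Sox17 and of SEG at day 7 were the highest of their groups, and still every library with a factor was below every control library. Mmp23 fell at day 7 in SEG (log2 change −1.70 ± 0.286, adjusted p = 5.49e-05), Sox17 (−1.80 ± 0.286, adjusted p = 2.39e-05) and Erg (−1.59 ± 0.285, adjusted p = 0.000115), and at day 3 in SEG (−1.40, adjusted p = 0.000472), Sox17 (−2.01, adjusted p = 9.69e-06) and Erg (−0.85, adjusted p = 0.0181). Without both outlying day 7 libraries the Sox17 value at day 7 was −2.50, adjusted p = 2.39e-16, and the Erg value at day 3 −0.83, adjusted p = 1.72e-09. The Erg fall at day 3 did not pass without replicate 1 of Erg at day 3 (−0.77, adjusted p = 0.0734) or without its replicate 3 (−0.84, adjusted p = 0.0503).

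**Figure D1:**
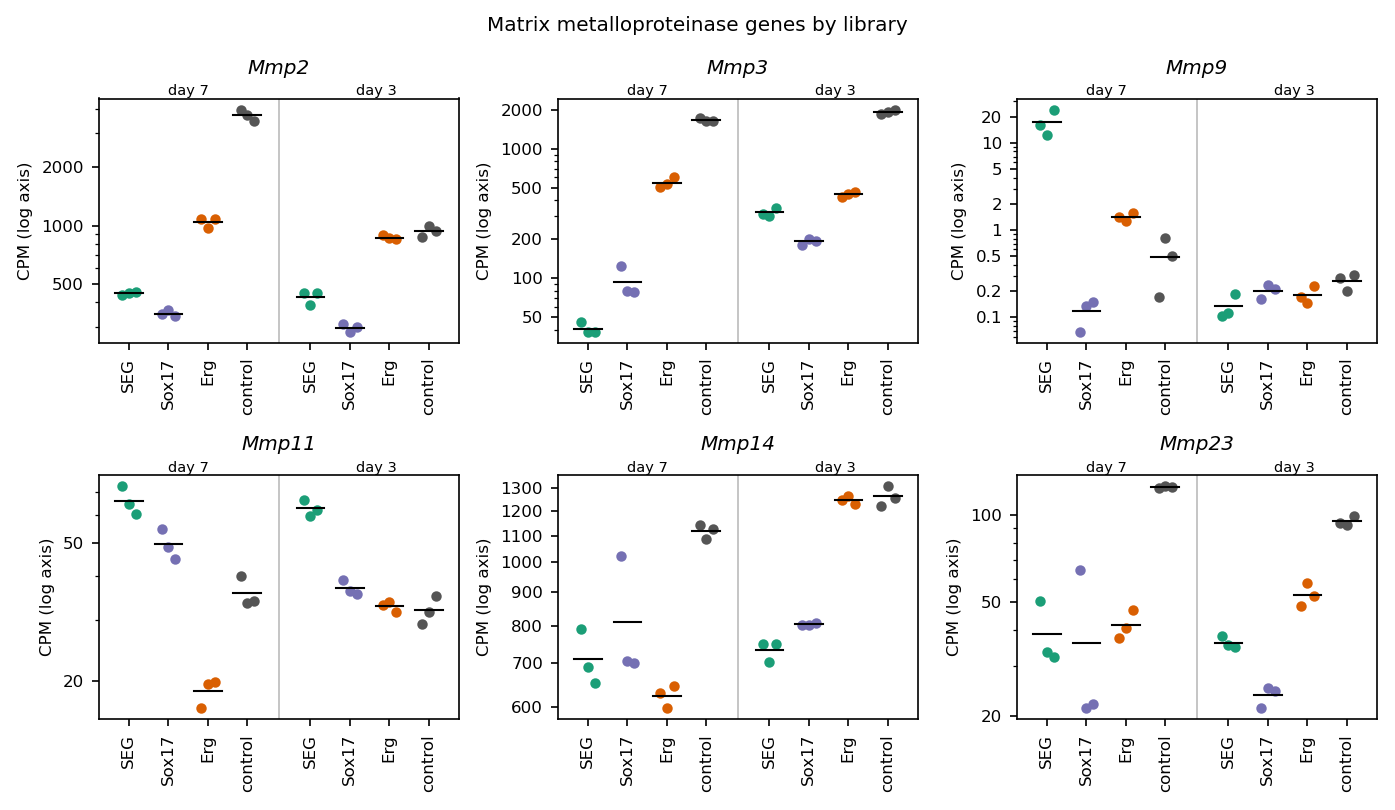
CPM of the 6 Mmp genes in each library (log axis, a scale per gene), day 7 left and day 3 right of the grey line. Points are the 3 libraries of a group in replicate order and black lines their mean; Mmp9 stands at 16.2, 12.4 and 24.2 CPM in SEG at day 7, above all other libraries.

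The inhibitors did not move as a block. Timp1 (ENSMUSG00000001131, chromosome X, 20870166 to 20874735, plus strand), a soluble inhibitor that also acts as a growth factor, is made by many stromal cells. Timp1 libraries of day 7 had 270.0, 185 and 179.9 CPM in SEG, 359, 135 and 125 in Sox17, 188, 185 and 240.4 in Erg and 312, 327 and 345 in control. Those of day 3 had 353, 373 and 361 CPM in SEG, 202, 241 and 249 in Sox17, 234, 241 and 222 in Erg and 397, 404 and 414 in control. Replicate 1 of Sox17 at day 7 was above the control libraries while the other Sox17 libraries were below them, and replicate 1 of SEG was the highest of its group. Timp1 fell in Sox17 (log2 change −0.67 ± 0.265, adjusted p = 0.0388) and Erg (−0.68 ± 0.265, adjusted p = 0.0401) at day 7 and in Sox17 (−0.81 ± 0.265, adjusted p = 0.0185) and Erg (−0.80 ± 0.265, adjusted p = 0.0177) at day 3. Without both outlying day 7 libraries all 4 falls passed with smaller p-values: −1.30, adjusted p = 5.00e-11 in Sox17 and −0.63, adjusted p = 5.00e-07 in Erg at day 7, and −0.81, adjusted p = 1.22e-08 in Sox17 and −0.79, adjusted p = 1.80e-08 in Erg at day 3. In SEG its log2 change was −0.63, adjusted p = 0.0599 at day 7 and −0.16, adjusted p = 0.684 at day 3. The day 7 difference of SEG passed without both outlying day 7 libraries (−0.81, adjusted p = 1.03e-07), without replicate 1 of SEG (−0.80, adjusted p = 0.0354) and with the same-numbered Sox17 and SEG libraries of day 7 as blocks (−0.64, adjusted p = 0.000259). The day 7 fall in Erg no longer passed without any 1 of the 3 control libraries or without replicate 1 or 2 of Erg at that day (adjusted p = 0.0635 to 0.113), nor with RLE size factors (adjusted p = 0.0509) or without the filter on low counts (adjusted p = 0.0600). The day 7 fall in Sox17 was lost without any 1 control library or without replicate 2 or 3 of Sox17 (adjusted p = 0.0600 to 0.226), without the filter (adjusted p = 0.0605) and with only the groups compared in the fit (−0.67, adjusted p = 0.290). At day 3 the Erg fall was lost without replicate 1 of Erg (−0.79, adjusted p = 0.0532) or replicate 3 (−0.77, adjusted p = 0.0557), and the Sox17 fall without replicate 1 of Sox17 (−0.73, adjusted p = 0.0744).

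Timp2 (ENSMUSG00000017466, chromosome 11, 118301069 to 118355740, minus strand), the partner of MMP14 in activating MMP2, was the most abundant inhibitor per length in control. The day 7 libraries had 878, 939 and 897 CPM in SEG, 1244, 1528 and 1473 in Sox17, 2197, 2092 and 2236 in Erg and 3394, 3296 and 3147 in control. The day 3 libraries had 655, 568 and 668 CPM in SEG, 761, 754 and 760.2 in Sox17, 2692, 2542 and 2458 in Erg and 2078, 2175 and 2210.0 in control. SEG and Sox17 lay below control and Erg at either day without overlap, and SEG was the lower of the pair. Timp2 fell at day 7 in SEG (log2 change −1.86 ± 0.0805, adjusted p = 1.57e-13), Sox17 (−1.21 ± 0.0790, adjusted p = 8.60e-11) and Erg (−0.59 ± 0.0782, adjusted p = 3.21e-06), and at day 3 in SEG (−1.77, adjusted p = 5.25e-13) and Sox17 (−1.51, adjusted p = 4.99e-12). In Erg at day 3 it rose slightly (0.25, adjusted p = 0.0121), a call lost without replicate 1 of control at day 3 (0.22, adjusted p = 0.0538).

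Timp3 (ENSMUSG00000020044, chromosome 10, 86300372 to 86349506, plus strand), the inhibitor that binds the matrix and in addition blocks ADAM sheddases and the binding of VEGF to its receptor, had the widest gap between a condition and the rest among the abundant members. Its libraries of day 7 had 184, 283 and 265 CPM in SEG, 238, 413 and 489 in Sox17, 3829, 3632 and 3279.7 in Erg and 320.1, 297 and 281 in control. Its libraries of day 3 had 174, 165 and 169 CPM in SEG, 191, 203 and 175 in Sox17, 5134, 5086 and 4964 in Erg and 297, 333 and 318 in control. The lowest Erg library, at 3279.7 CPM, was above the highest of all other libraries, at 489 CPM. Timp3 rose in Erg at day 7 (log2 change 3.58 ± 0.197, adjusted p = 1.39e-11) and day 3 (4.0 ± 0.201, adjusted p = 3.62e-12). In SEG, whose libraries hold Erg RNA too, it fell at day 3 (−0.90, adjusted p = 0.000401) and did not pass at day 7 (−0.30, adjusted p = 0.195), where treating same-numbered Sox17 and SEG libraries of day 7 as blocks gave a called fall (−0.32, adjusted p = 0.00258) and leaving out both outlying libraries gave −0.09, adjusted p = 0.305. In Sox17 it fell at day 3 (−0.74, adjusted p = 0.00240), and at day 7 it had a log2 change of 0.34, adjusted p = 0.110, which passed without both outlying day 7 libraries (0.63, adjusted p = 1.86e-07), without replicate 1 of Sox17 alone (0.59, adjusted p = 0.000285) and with that block (0.29, adjusted p = 0.00465). SEG was lower than Erg by 3.88 on the log2 scale at day 7 (adjusted p = 2.95e-12) and by 4.90 at day 3 (adjusted p = 1.63e-13). Erg itself, the factor, was also lower in SEG than in Erg libraries, at 836 to 1039 CPM against 4327 to 5809 CPM at day 7 and 1254 to 1281 CPM against 7039 to 7133 CPM at day 3. The part of that difference in the Timp3 level was not tested. The gene lies within Syn3, which is on the opposite strand and shares 1733 exon bases with it, and Syn3 stood at 3.499 ± 0.788 CPM in Erg and 0.0953 ± 0.0437 CPM in control at day 7.

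Timp4 (ENSMUSG00000030317, chromosome 6, 115241892 to 115252205, minus strand), the inhibitor best known from heart and vessels, was scarce outside Erg and SEG. Day 7 libraries held 9.47, 9.07 and 9.65 CPM in SEG, 1.11, 0.627 and 0.453 in Sox17, 38.8, 31.9 and 36.4 in Erg and 1.25, 1.09 and 0.973 in control. Day 3 libraries held 0.665, 0.792 and 0.972 CPM in SEG, 0.243, 0 and 0.126 in Sox17, 65.6, 61.0 and 68.0 in Erg and 0.279, 1.14 and 1.13 in control. The Sox17 library with 0 counts allows up to 0.0883 CPM (a floor of 3 counts, counting error only). Erg was above every other library at either day, and at day 7 SEG came next, clear of Sox17 and control. Timp4 rose in Erg at day 7 (log2 change 5.02 ± 0.332, adjusted p = 2.08e-10) and day 3 (6.23 ± 0.351, adjusted p = 2.11e-11) and in SEG at day 7 (3.09 ± 0.329, adjusted p = 1.47e-07). In SEG at day 3 its log2 change was −0.07, adjusted p = 0.926. In Sox17 it fell at day 3 (−2.72, adjusted p = 0.000509), on 0 to 9 counts per library in Sox17 and 5 to 23 in control, and had a log2 change of −0.52, adjusted p = 0.260 at day 7, which passed without both outlying day 7 libraries (−0.94, adjusted p = 0.0432) and without replicate 1 of Sox17 (−0.98, adjusted p = 0.0411). Timp4 shares 90 exon bases with Syn2 on the opposite strand. Syn2 moved with it in Erg, at 14.5 ± 1.92 CPM against 1.97 ± 0.389 CPM in control at day 7 (log2 change 2.87) and 18.4 ± 0.631 CPM against 3.28 ± 0.539 CPM at day 3 (2.49), but in SEG at day 7 it had 1.90 ± 0.384 CPM while Timp4 had 9.40 ± 0.301 CPM. The ETS letters printed above are upstream of Timp4, which rose in Erg, and of Timp1, which fell there.

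**Figure D2:**
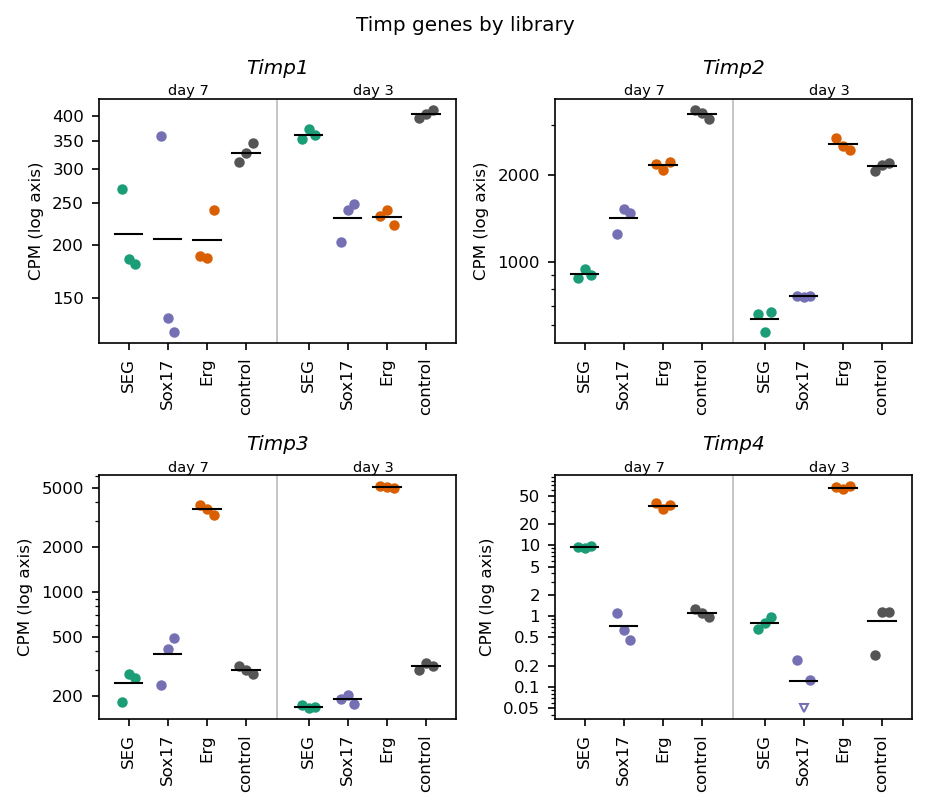
CPM of the 4 Timp genes in each library (log axis, a scale per gene), day 7 left and day 3 right of the grey line, drawn as for the Mmp genes. The open triangle at the foot of the Timp4 panel is the Sox17 library of day 3 with 0 counts. Timp3 and Timp4 are highest in the Erg libraries, Timp3 at 3829, 3632 and 3279.7 CPM at day 7.

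The calls of the 10 members are set beside those of all tested genes. At day 7, in SEG against control, 3 rose (22.5% of all tested genes), 5 fell (21.8%) and 2 did not pass, 8 called in all (44.3%), with a median log2 change of −0.64. In Sox17, 1 rose (29.5% of all tested genes), 7 fell (25%) and 2 did not pass, 8 called in all (54.5%), with a median of −0.94. In Erg, 3 rose (23.7% of all tested genes), 7 fell (24.8%) and 0 did not pass, 10 called in all (48.5%), with a median of −0.76. At day 3, in SEG, 1 rose (20% of all tested genes), 6 fell (20.2%) and 3 did not pass, 7 called in all (40.2%), with a median of −0.90. In Sox17, 0 rose (20.8% of all tested genes), 8 fell (19.6%) and 2 did not pass, 8 called in all (40.4%), with a median of −1.16. In Erg, 3 rose (22.6% of all tested genes), 3 fell (23.5%) and 4 did not pass, 6 called in all (46.1%), with a median of −0.06. The median over all tested genes lay within 0.05 of 0 in all 6, and the comparisons of a day share their control libraries. Falls were the more common call among these genes in each comparison except Erg at day 3, which had as many rises as falls. Mmp3 and Mmp23 fell in all 6.

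**Figure D3:**
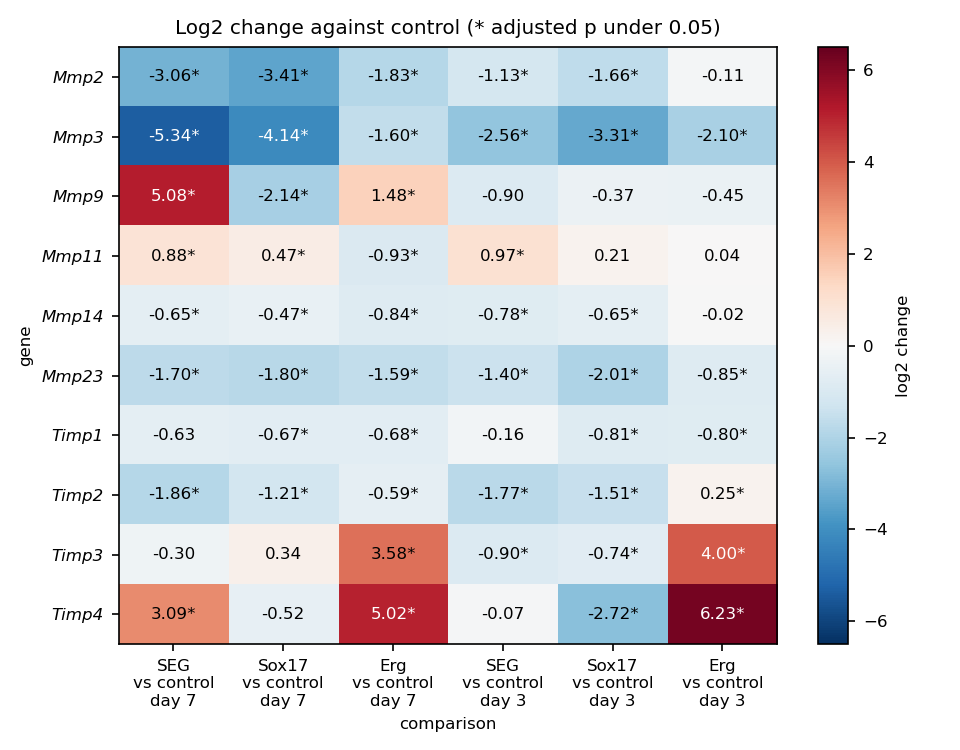
Log2 change against control of each member (colour and number) by condition, day 7 left and day 3 right. Red is higher and blue lower than in control; values marked with a star passed an adjusted p under 0.05, for example Timp3 in Erg at day 7 (3.58).

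Levels were also summed per length (CPM per kilobase of exon), which allows genes to be added. The 6 Mmp genes summed to 319.8 ± 17.8 CPM per kb in SEG, 325 ± 57.4 in Sox17, 743 ± 41.0 in Erg and 2279 ± 107 in control at day 7 (SD, n = 3). The day 3 sums were 468 ± 26.4, 353 ± 3.57, 748 ± 6.61 and 1603 ± 64.6 CPM per kb in that order. The 4 Timp genes summed to 502 ± 45.4 in SEG, 642 ± 96.3 in Sox17, 1234 ± 32.2 in Erg and 1248 ± 15.8 in control at day 7. At day 3 the Timp sums were 591 ± 6.87, 478 ± 27.3, 1552 ± 47.4 and 1048 ± 28.5 in that order. The Mmp sum was lower with each factor at either day. The Timp sum was lower in SEG and Sox17, close to control in Erg at day 7 and above it in Erg at day 3. The Timp sum over the Mmp sum was 1.57 ± 0.0564 in SEG, 1.98 ± 0.0486 in Sox17, 1.66 ± 0.0685 in Erg and 0.548 ± 0.0188 in control at day 7. The day 3 ratios were 1.27 ± 0.0615, 1.35 ± 0.0641, 2.08 ± 0.0779 and 0.654 ± 0.00898 in that order. Control was thus the group with more Mmp than Timp RNA per length, in all 6 of its libraries, and no library with a factor had that order. These ratios follow from the members above and carry no test. Their composition differed too. Timp2 made 46.5 ± 5.06% of the Timp sum in SEG, 57.9 ± 13.4% in Sox17, 45.2 ± 0.494% in Erg and 67.4 ± 1.70% in control at day 7. Timp3 made 35.6 ± 3.04% of it in Erg and 2.94 ± 0.159% in control. In control at day 7, Mmp2 (1105 ± 77.9 CPM per kb) and Mmp3 (920.1 ± 28.4) made up most of the Mmp sum, while in SEG Mmp2 (132 ± 2.62) and Mmp14 (119 ± 12.02) led and Mmp3 held 22.8 ± 2.23 CPM per kb.

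**Figure D4:**
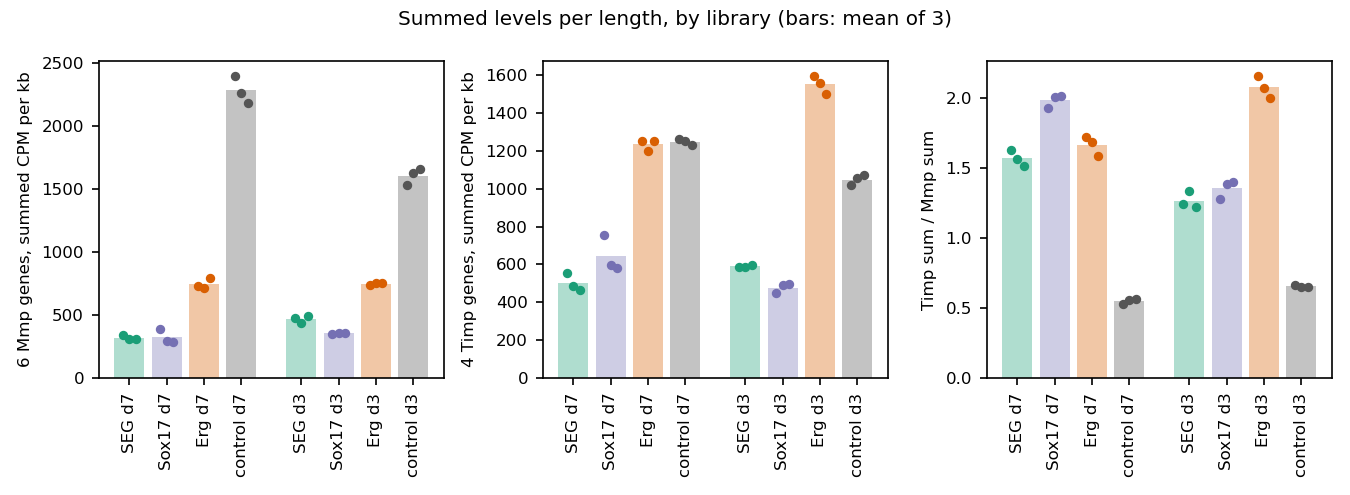
Summed CPM per kb of the 6 Mmp genes, of the 4 Timp genes, and the ratio of the Timp to the Mmp sum, by group (bars are means of 3 libraries, points the libraries; d7 and d3 are the days). The ratio is below 1 in the control libraries and above 1 in all others.

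SEG was set against each single factor. Against Erg at day 7, 2 rose (24.7% of all tested genes), 5 fell (24.8%) and 3 did not pass, 7 called in all (49.4%): Mmp11 and Mmp9 rose and Timp2, Timp3, Timp4, Mmp2 and Mmp3 fell. At day 3, 1 rose (25.7% of all tested genes), 6 fell (25.3%) and 3 did not pass, 7 called in all (51%): Mmp11 rose, and Mmp14, Timp2, Timp3, Timp4, Mmp2 and Mmp3 fell. The log2 change of Timp4 was −1.92, adjusted p = 5.06e-06 at day 7 and −6.30, adjusted p = 7.16e-12 at day 3. Timp1, Mmp23 and Mmp14 did not pass at day 7, with log2 changes of 0.05, adjusted p = 0.899, −0.11, adjusted p = 0.777 and 0.19, adjusted p = 0.153; Mmp23 passed without both outlying libraries (−0.36, adjusted p = 0.000961), and Mmp14 passed with the same-numbered Sox17 and SEG libraries of day 7 as blocks (0.19, adjusted p = 0.00852). At day 3, Mmp23 (−0.55, adjusted p = 0.110) and Timp1 (0.64, adjusted p = 0.0501) did not pass, and without both outlying libraries they did (−0.57, adjusted p = 8.44e-07 and 0.63, adjusted p = 4.94e-07). Against Sox17 at day 7, 4 rose (18.8% of all tested genes), 3 fell (21.2%) and 3 did not pass, 7 called in all (39.9%): Mmp11, Mmp9, Timp4 and Mmp2 were higher in SEG and Timp2, Timp3 and Mmp3 lower. At day 3, 4 rose (14% of all tested genes), 1 fell (14.2%) and 5 did not pass, 5 called in all (28.3%): Mmp11, Timp4, Mmp2 and Mmp3 were higher and Timp2 was lower. With only the groups compared in the fit, the day 7 calls of Mmp2 (0.34, adjusted p = 0.122), Mmp11 (0.40, adjusted p = 0.135) and Timp3 (−0.65, adjusted p = 0.237) were lost. They passed without both outlying libraries (0.36, adjusted p = 0.000516, 0.42, adjusted p = 0.000752 and −0.72, adjusted p = 2.28e-07 in that order). Without both outlying libraries Mmp23 (0.60, adjusted p = 2.43e-05) and Timp1 (0.49, adjusted p = 0.000308) passed at day 7. Of all tested genes, 47.2% were called at day 7 and 48.5% at day 3 without them. In the same setting 4 more members passed at day 3: Mmp14 (−0.13, adjusted p = 0.00907, against −0.13, adjusted p = 0.439 with all libraries), Mmp23 (0.60, adjusted p = 1.13e-06, against 0.61, adjusted p = 0.124), Timp1 (0.65, adjusted p = 6.52e-07, against 0.65, adjusted p = 0.0756) and Timp3 (−0.17, adjusted p = 0.0434, against −0.17, adjusted p = 0.573). Several of these calls depended on 1 library. Without replicate 1 of Sox17 at day 7, Mmp23 (0.83, adjusted p = 6.00e-05) and Timp1 (0.71, adjusted p = 0.000236) were called higher, against 0.10, adjusted p = 0.798 and 0.04, adjusted p = 0.925 with it. The Timp3 fall was lost without replicate 3 of Sox17 (−0.42, adjusted p = 0.0513). Mmp14 was called lower without replicate 2 or 3 of Sox17 (−0.28, adjusted p = 0.0472 and −0.28, adjusted p = 0.0385) and with a replicate block within the pair of groups (−0.17, adjusted p = 0.0187), against −0.19, adjusted p = 0.175. At day 3 the Timp2 fall was lost without replicate 2 of SEG (−0.20, adjusted p = 0.0976).

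The SEG effect was then set against the sum of the Sox17 and Erg effects on the log2 scale, which asks whether the single effects add up. At day 7, 5 were above it (23.8% of all tested genes), 2 were below it (25%) and 3 did not pass, 7 called in all (48.8%). At day 3, 5 were above it (18.2% of all tested genes), 3 were below it (17.8%) and 2 did not pass, 8 called in all (36%). Timp3 was far below the sum at either day: its SEG effect at day 7 was −0.30 while the single effects summed to 3.93 (difference −4.22 ± 0.263, adjusted p = 1.28e-10), and at day 3 −0.90 against 3.26 (−4.17 ± 0.263, adjusted p = 2.44e-10). Timp4 was below the sum as well, by 1.40 at day 7 (adjusted p = 0.0179) and 3.58 at day 3 (adjusted p = 0.00200). The day 7 value was lost without both outlying day 7 libraries (−1.001, adjusted p = 0.0598) and without replicate 1 of Sox17 at day 7 (−0.95, adjusted p = 0.0835), and the day 3 value without replicate 1 of Sox17 at day 3 (−2.38, adjusted p = 0.195). Mmp9 went above the sum at day 7, with a SEG effect of 5.08 against −0.66 (difference 5.74 ± 0.543, adjusted p = 4.88e-08). Mmp2 also fell less than the sum, by 2.18 at day 7 (adjusted p = 5.36e-12) and 0.64 at day 3 (adjusted p = 7.98e-05), and Mmp23 by 1.69 and 1.45. Mmp11 lay above the sum by 1.35 at day 7 and 0.72 at day 3, and Mmp14 by 0.65 at day 7. The Mmp14 call was lost with only the groups compared in the fit (0.59, adjusted p = 0.0538). It passed without both outlying day 7 libraries (0.73, adjusted p = 2.80e-09). Mmp3 exceeded it at day 3 (2.85, adjusted p = 4.50e-10). At day 7 the difference of 0.40, adjusted p = 0.0824 passed without both outlying day 7 libraries (0.52, adjusted p = 0.000157), without replicate 1 of Sox17 (0.65, adjusted p = 6.55e-05) and with the replicate block (0.43, adjusted p = 0.00349). Timp1 exceeded it at day 3 (1.45, adjusted p = 0.00450). At day 7 its 0.72, adjusted p = 0.118 passed without both outlying day 7 libraries (1.13, adjusted p = 1.46e-07), without replicate 1 of Sox17 (1.39, adjusted p = 1.93e-06) and with the block (0.87, adjusted p = 0.000375). Timp2 was below the sum at day 3 (−0.52, adjusted p = 0.000939). Factor levels were not matched between the groups: Erg RNA was lower in SEG than in Erg libraries, as given above. Sox17 RNA stood at 955 to 1054 CPM in SEG against 1549 to 1653 CPM in Sox17 libraries at day 3. At day 7 it stood at 461, 819 and 816 CPM in SEG against 616, 1303 and 1322 CPM in Sox17. The lowest value of each group was that of its outlying replicate 1. The part of these differences in the results was not tested.

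**Figure D5:**
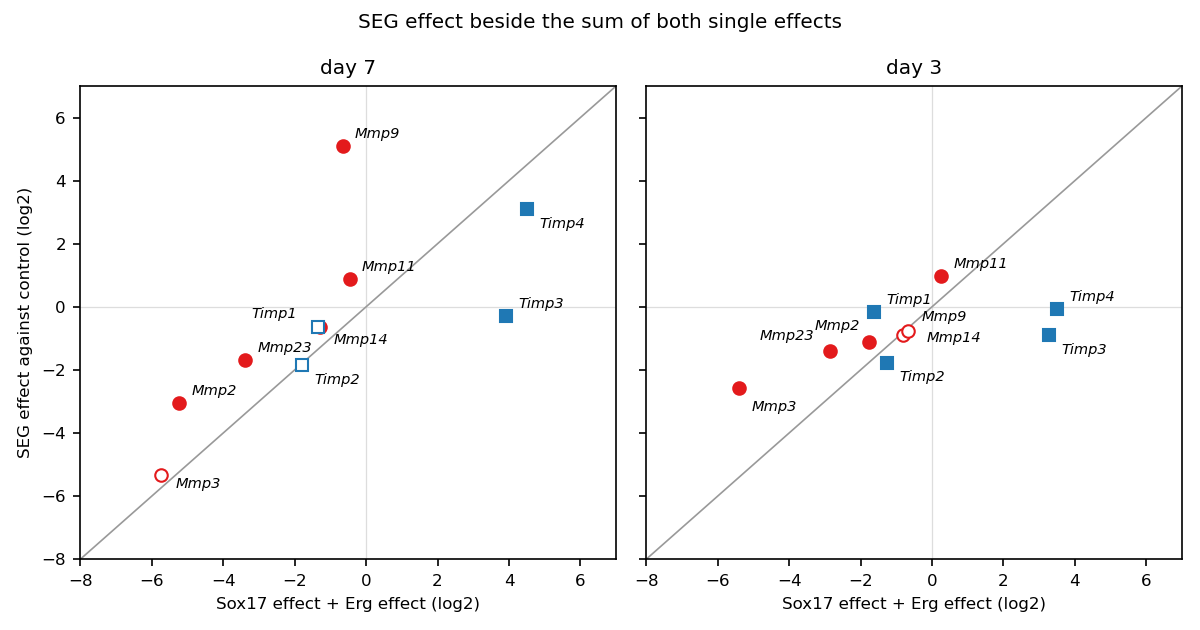
SEG effect against control (vertical, log2) and sum of the Sox17 and Erg effects (horizontal, log2) for each member, day 7 left and day 3 right. Red circles are Mmp and blue squares Timp genes, open symbols did not pass the test of the difference, and the grey line marks equality; Timp3 lies far below the line at day 7 (−4.22) and Mmp9 far above it (5.74).

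Between the days, day 7 was set against day 3 within each condition. In control, 2 rose (16.1% of all tested genes), 0 fell (13.4%) and 8 did not pass, 2 called in all (29.5%): Mmp2 rose by 1.99 and Timp2 by 0.61 on the log2 scale, the pair that works with MMP14 at the cell surface. Mmp9 in control had 0.97, adjusted p = 0.126, which passed without replicate 1 of control at day 7 (1.32, adjusted p = 0.0205). Without both outlying libraries 4 more members passed in control: Mmp3 (−0.22, adjusted p = 0.00531), Mmp14 (−0.19, adjusted p = 0.000527), Mmp23 (0.38, adjusted p = 0.000117) and Timp1 (−0.32, adjusted p = 0.00239), against −0.21, adjusted p = 0.266, −0.18, adjusted p = 0.243, 0.40, adjusted p = 0.325 and −0.30, adjusted p = 0.441 with all libraries. The share of all tested genes called in control was 49.1% in that setting. In SEG, 4 rose (14.3% of all tested genes), 2 fell (12.9%) and 4 did not pass, 6 called in all (27.2%): Mmp9 rose by 6.95, Timp4 by 3.51, Timp2 by 0.52 and Timp3 by 0.52, while Mmp3 fell by 2.98 and Timp1 by 0.78. The Timp1 and Timp3 calls of SEG were lost without any 1 library of SEG at day 3 or without replicate 2 or 3 at day 7 (adjusted p = 0.0663 to 0.128 and 0.0728 to 0.162). Without both outlying libraries they passed, at −0.96, adjusted p = 2.26e-08 and 0.72, adjusted p = 8.78e-08. In Sox17, 5 rose (16.6% of all tested genes), 1 fell (12.9%) and 4 did not pass, 6 called in all (29.5%): Mmp11 (0.42), Timp2 (0.90), Timp3 (1.001), Timp4 (2.55) and Mmp2 (0.24) rose and Mmp3 (−1.03) fell. With only the groups compared in the fit, the rises of Mmp11 (adjusted p = 0.1247), Timp3 (0.0960), Timp4 (0.152) and Mmp2 (0.313) were lost. Without both outlying libraries the rises of Mmp11 (0.36, adjusted p = 0.00168) and Timp3 (1.27, adjusted p = 1.49e-11) passed. Those of Timp4 (2.10, adjusted p = 0.00518) and Mmp2 (0.26, adjusted p = 0.00427) passed there too. The small Mmp2 rise was also lost without replicate 2 (0.20, adjusted p = 0.104) or 3 (0.24, adjusted p = 0.0510) of Sox17 at day 3. Timp1 in Sox17 had −0.16, adjusted p = 0.669, and −0.83, adjusted p = 7.79e-05 without replicate 1 of day 7 (−0.81, adjusted p = 3.67e-07 without both outlying libraries). Mmp14 in Sox17 had 0.01, adjusted p = 0.946, and −0.17, adjusted p = 0.00420 without both. Mmp23 in Sox17 had 0.61, adjusted p = 0.112, and 0.89, adjusted p = 0.0161 without replicate 2 and 0.88, adjusted p = 0.0173 without replicate 3 of day 7, but −0.11, adjusted p = 0.368 without both outlying libraries. With the same-numbered Sox17 and SEG libraries of day 7 as blocks, Timp1 (−0.32, adjusted p = 0.0426) and Mmp23 (0.43, adjusted p = 0.0117) passed too. In Erg, 2 rose (15.6% of all tested genes), 5 fell (14.4%) and 3 did not pass, 7 called in all (30%): Mmp9 (2.89) and Mmp2 (0.27) rose, and Mmp11 (−0.81), Mmp14 (−0.998), Timp2 (−0.24), Timp3 (−0.50) and Timp4 (−0.86) fell. Mmp3 (0.30, adjusted p = 0.0951) and Mmp23 (−0.35, adjusted p = 0.381) did not pass in Erg, and without both outlying libraries they did (0.32, adjusted p = 0.000180 and −0.32, adjusted p = 0.00105). The Timp3 fall was lost without any 1 of the 6 Erg libraries (adjusted p = 0.0602 to 0.138). The Timp2 fall was lost without replicate 1 or 2 of Erg at either day (adjusted p = 0.0559 to 0.136), and the Timp4 fall without replicate 3 at day 3 (−0.83, adjusted p = 0.0514) or replicate 2 at day 7 (−0.79, adjusted p = 0.0607). Without the filter on low counts the falls of Timp2 (−0.23, adjusted p = 0.0604) and Timp3 (−0.50, adjusted p = 0.0535) did not pass, and without both outlying libraries they passed, at −0.22, adjusted p = 0.00128 and −0.48, adjusted p = 3.63e-06.

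Whether an effect against control differed by day was tested as well. For SEG, 2 had a higher effect at day 7 (6.09% of all tested genes), 2 had a lower one (5.77%) and 6 did not pass, 4 called in all (11.9%). For Sox17, 2 had a higher effect at day 7 (7.61% of all tested genes), 2 had a lower one (6.66%) and 6 did not pass, 4 called in all (14.3%). For Erg, 1 had a higher effect at day 7 (9.34% of all tested genes), 4 had a lower one (10.4%) and 5 did not pass, 5 called in all (19.7%). Without both outlying libraries, Mmp3 (0.54, adjusted p = 3.59e-05), Mmp23 (−0.71, adjusted p = 1.05e-05), Timp3 (−0.39, adjusted p = 0.00238) and Timp4 (−1.16, adjusted p = 0.0164) passed as well for Erg, against 0.50, adjusted p = 0.0620, −0.74, adjusted p = 0.212, −0.42, adjusted p = 0.280 and −1.21, adjusted p = 0.0911 with all libraries. For SEG, Mmp23 (−0.50, adjusted p = 0.00206), Timp1 (−0.65, adjusted p = 0.000335) and Timp3 (0.81, adjusted p = 2.78e-06) passed in that setting, against −0.30, adjusted p = 0.762, −0.47, adjusted p = 0.541 and 0.60, adjusted p = 0.149. For Sox17, Mmp23 (−0.49, adjusted p = 0.00271), Timp1 (−0.49, adjusted p = 0.00417) and Timp2 (0.41, adjusted p = 0.000337) did, against 0.21, adjusted p = 0.758, 0.14, adjusted p = 0.830 and 0.29, adjusted p = 0.0846. The shares of all tested genes called in that setting were 43.9% for Erg, 25.2% for SEG and 24.6% for Sox17. Mmp2 was in all 3 lists, with a lower value at day 7 in each, beside the rise of Mmp2 in control, which the 3 comparisons share.

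Of the other 17 Mmp genes in the table, 13 were tested. At day 7, 4 rose and 4 fell in SEG, 4 rose and 4 fell in Sox17 and 7 rose and 5 fell in Erg, where 44.3%, 54.5% and 48.5% of all tested genes were called in that order. At day 3, 5 rose and 3 fell in SEG, 3 rose and 4 fell in Sox17 and 5 rose and 5 fell in Erg, where 40.2%, 40.4% and 46.1% of all tested genes were called. Mmp13, a collagenase, was high in Sox17: 4.46 ± 0.866 CPM in SEG, 61.0 ± 9.03 in Sox17, 1.47 ± 0.635 in Erg and 0.499 ± 0.271 in control at day 7, with log2 changes of 3.103, 6.87 and 1.45. At day 3 its log2 change in Sox17 was 6.99 (42.6 ± 5.99 CPM against 0.330 ± 0.0204 in control). Mmp15, a membrane-type enzyme, rose in Erg at day 7 (3.24; 45.6 ± 2.87 CPM against 4.81 ± 1.20 in control) and day 3 (3.26) and in Sox17 at day 7 (2.44). In SEG at day 7 it had 5.73 ± 0.204 CPM (log2 change 0.25, adjusted p = 0.267). Mmp19, the most abundant of these in control, fell in all 6 comparisons, to 25.6 ± 2.62 CPM in SEG, 39.0 ± 3.11 in Sox17 and 71.3 ± 5.34 in Erg, against 159 ± 9.31 CPM in control at day 7. Mmp8, the neutrophil collagenase, also fell in all 6 and had 4.99 ± 0.519 CPM in control at day 7. Mmp28 rose in SEG at day 7 (1.04) and day 3 (0.90), and in Sox17 at day 7 (1.18), and fell in Erg at day 7 (−0.79) and day 3 (−0.68). Mmp16 fell at day 7 in SEG (−0.73), Sox17 (−1.80) and Erg (−1.32), and at day 3 in Sox17 (−0.91) and Erg (−1.02). Mmp17 rose at day 7 in SEG (1.96), Sox17 (1.996) and Erg (1.98). Mmp27 fell at day 7 in SEG (−2.67) and Sox17 (−4.39). The rest were scarce. In Erg at day 7, Mmp12, the elastase of macrophages, rose by 2.92 to 4.34 ± 0.326 CPM beside the macrophage markers given above, Mmp24 by 5.43 to 3.63 ± 0.926 CPM and Mmp1a by 6.29 to 6.60 ± 1.07 CPM, and Mmp10 fell by 1.24. Mmp1a and Mmp1b are close copies, so how their reads were split is uncertain. Mmp25 did not reach the filter, and Mmp7, Mmp20 and Mmp21 were at 0 counts in SEG, Erg and control at day 7.

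Genes that activate these enzymes or hold them at the surface made a list of 20, of which 19 were tested. At day 7, 9 rose and 7 fell in SEG, 7 rose and 10 fell in Sox17 and 7 rose and 7 fell in Erg. At day 3, 8 rose and 7 fell, 6 rose and 10 fell and 5 rose and 6 fell in the same order. The shares of all tested genes called in these comparisons are those given for the other Mmp genes, here and for the lists that follow. Plaur, the receptor that gathers urokinase, rose in Erg at day 7 (3.32; 37.1 ± 1.06 CPM against 3.71 ± 0.493 in control) and day 3 (2.94) and in SEG at day 3 (2.67). Cav1, the caveolin that takes part in the uptake of MMP14, rose in Sox17 at day 7 (3.94) and day 3 (4.32) and in SEG at day 7 (2.90) and day 3 (3.72). Pcsk5, a proprotein convertase, rose in Sox17 at day 7 (3.90) and in SEG (3.35). Plat, tissue plasminogen activator, fell in all 6 comparisons, for example in SEG (−1.55), Sox17 (−0.88) and Erg (−1.15) at day 7. Pcsk6, another convertase, fell in Sox17 at day 7 (−2.41). Tspan14, a tetraspanin, rose in SEG at day 3 (2.92). Of 10 ADAM genes, only some of whose proteins TIMPs inhibit, 1 rose and 5 fell in SEG, 1 rose and 4 fell in Sox17 and 4 rose and 3 fell in Erg at day 7. Adam12 fell in Erg at day 7 (−1.88) and day 3 (−1.95) and in SEG at day 3 (−1.41), and Adam15, a disintegrin of endothelium among other cells, rose in Erg at day 3 (1.97). Of 11 cathepsins, 1 rose and 4 fell in SEG, 1 rose and 6 fell in Sox17 and 5 rose and 2 fell in Erg at day 7. Ctsk, which cuts collagen in bone, fell in Erg (−1.33), Sox17 (−1.66) and SEG (−1.01) at day 7. Ctss, a lysosomal protease of macrophages, rose in Erg (1.97), beside the macrophage markers given above, and Ctsd (1.27) rose too. These lists were drawn with earlier results of the data known, and no list was tested as a whole.

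For each member except Timp2, the 3 genes with the most similar pattern over the 8 group means were found among 10287 searched, with the root mean square difference of centred log2 CPM as the measure. For Mmp2 they were C1ra (0.261), Selenop (0.270), Capn6 (0.327); for Mmp3 Olfml3 (0.411), Smoc2 (0.470), Pdgfra (0.536), the last a receptor used as a fibroblast marker; for Mmp23 Acot11 (0.112), Mrc2 (0.145), Slc44a2 (0.185). Timp3 had Camk1d (0.448), Slit1 (0.449), Syn2 (0.470), of which Syn2 overlaps Timp4 on the opposite strand, and Timp4 had Lyve1 (0.857), Npr1 (0.919), Abi3 (1.05). Mmp9 was nearest to Aqp4 (1.21), Vwf (1.25), Limch1 (1.30), the widest distances among the members. For Mmp11 they were Mtmr11 (0.195), Rnf138 (0.216), Tcf4 (0.217), for Mmp14 Tmem150a (0.135), Tulp4 (0.149), Pacs2 (0.149) and for Timp1 Ikbip (0.105), Pgm3 (0.151), Nepro (0.153). The differences are small beside the span of 3.65 for Mmp2, 5.54 for Mmp3 and 4.90 for Timp3, and describe 8 points that share libraries.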

How the data were processed

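The data are RNA sequencing counts per gene, deposited by the authors as whole-number counts in a table of 24 libraries (mouse heart fibroblasts, 8 groups of 3). Per the submitters' processing notes, Salmon, DESeq2 and mm10 were used; the sources used here give no versions and no strand setting. An RNeasy kit was used for extraction and mRNA was sequenced, per the labels' protocols. Of 35727 genes, 14804 passed edgeR's filterByExpr (minimum count 10). edgeR 4.0.16 (R 4.3.3, limma 3.58.1) fitted 8 group means with TMM scaling on all 24 libraries and tested 19 comparisons with the quasi-likelihood F-test, called at an adjusted p under 0.05 (Benjamini-Hochberg over all tested genes); the approximate standard error is the log2 change over the root of F. Intervals and floors cover counting error only. CPM per kb uses merged GENCODE exon length. Tables and plots were made with Python 3.11.15, pandas 2.3.3, numpy 2.4.6 and matplotlib 3.10.9. The fit was run on simulated data without outlying libraries, which cannot show how it behaves with them. The members and lists were chosen with earlier results of these data known. Genes named are the members, the factors, the other Mmp genes, up to 3 called genes per list and comparison with the largest change and at least 10 CPM, the 3 most similar genes per member, and genes that overlap a member; Jun, Fos, Syn3 and a few markers are named from the lists as well. A few genes that this rule names are not reported here. Alternatives were RLE size factors, no filter, a replicate block, DESeq2 1.42.0, only the groups compared, leaving out each library, and leaving out both outlying day 7 libraries. Same-numbered libraries deviated together in all 3 pairs (correlations 0.69, 0.396 and 0.441) only for SEG against Sox17 at day 7. A replicate block within these groups was therefore added after seeing the data. For 2 of the 3 SEG libraries the highest correlation was with the same-numbered Sox17 library. A deviation of 1 library from its group mean is offset by the others. An outlying replicate 1 in both groups can therefore raise all 3 correlations, and the check cannot tell this from pairing. Pairs of libraries within a group differed by more than sampling noise (chi-square per degree of freedom 2.88 to 457 over 24 pairs), and none was counted as a duplicate.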

Additional observations from a re-analysis of the deposited data

Results flagged for a closer look

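Each of these members was picked out because its effect against control differed between day 7 and day 3 in the test of that difference (log2, day 7 minus day 3; edgeR). The SEG effect was 5.99 higher at day 7 for Mmp9 and 3.17 higher for Timp4. It changed by −1.93 for Mmp2 and by −2.77 for Mmp3. In SEG, the change of Timp3 passed without replicate 1 of SEG at day 7 (0.81, adjusted p = 0.0334).

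The Sox17 effect changed by 1.08 for Timp3, 2.20 for Timp4, −1.75 for Mmp2 and −0.82 for Mmp3. The Mmp3 value was lost with only the groups compared (−0.84, adjusted p = 0.0524) and passed without both outlying day 7 libraries (−1.05, adjusted p = 2.63e-08). The Timp4 value, from a group with 0 to 9 counts per library at day 3, was lost in 8 of the fits that leave out 1 library (adjusted p = 0.0538 to 0.111), without both outlying day 7 libraries (1.78, adjusted p = 0.0613) and with only the groups compared (2.15, adjusted p = 0.252). The Mmp9 change of the Sox17 effect passed without replicate 1 of control at day 7 (−2.13, adjusted p = 0.0249), and that of Timp2 without replicate 1 of Sox17 at day 7 (0.38, adjusted p = 0.00308).

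The Erg effect changed by −0.97 for Mmp11, −0.82 for Mmp14, −0.84 for Timp2, 1.92 for Mmp9 and −1.72 for Mmp2. The Mmp9 value, from 3 to 8 counts per library in Erg at day 3, was lost in 9 of the fits that leave out 1 library (adjusted p = 0.0523 to 0.115) and without the filter on low counts (1.94, adjusted p = 0.0596). The 3 conditions share the control libraries, in which Mmp2 rose between the days.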

How the results depend on the processing

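Calls of single members, and the directions of called values, were the same in 189 of 190 results with RLE size factors, 185 of 190 without the filter, 190 of 190 with a replicate block and 187 of 190 with DESeq2. They were the same in 1361 of 1440 when 1 library was left out, 155 of 190 without both outlying day 7 libraries and 145 of 179 with only the groups compared. With only the groups compared, the estimate of spread comes from fewer samples. It holds the outlying day 7 libraries only where their groups are compared. The members called were then 4 for Sox17 against control at day 7 (8 in the fit on all libraries). For SEG against Sox17 they were 9 at day 3 (5) and 4 at day 7 (7). For day 7 against day 3 they were 6 in control (2) and 2 in Sox17 (6). For the change of the Erg effect they were 9 (5), and for that of the Sox17 effect 2 (4). The shares of all tested genes called moved too: 31.5% (54.5%), 48.8% (28.3%), 15.9% (39.9%), 60.4% (29.5%), 6.18% (29.5%), 45.9% (19.7%) and 8.05% (14.3%) in that order. Without both outlying day 7 libraries the members called were 9 for SEG against Sox17 at day 3, 6 for day 7 against day 3 in control, 9 for the change of the Erg effect and 7 for that of the SEG effect (4). The shares of all tested genes were then 48.5%, 49.1%, 43.9% and 25.2% (11.9%) in that order. The fit on all libraries shares its estimate of spread among all groups. The outlying libraries thus enter the errors of comparisons that do not use them. Timp1 in Erg against control at day 3 was −0.80, adjusted p = 0.0177 with them and −0.79, adjusted p = 1.80e-08 without them. How far this accounts for the counts above was not tested. When 1 library was left out, the count for day 7 against day 3 in Erg (7) ran from 4 to 6 where an Erg library was left out. The direction turned in 3 results that had not passed with all libraries, and the turned values passed. Turns of values that passed in neither fit are not counted, such as Timp1 in SEG against Erg at day 7 (0.05, and −0.18 without both outlying libraries). Mmp14 at day 7 against day 3 in Sox17 (0.01) was −0.19, adjusted p = 0.0247 without replicate 1 of Sox17 at day 7, within a range of −0.19 to 0.12 over fits that leave out 1 library, and −0.17, adjusted p = 0.00420 without both outlying libraries. The change of the Sox17 effect on Timp1 (0.14) was −0.53, adjusted p = 0.0466 and −0.49, adjusted p = 0.00417 in the same order, with a range of −0.53 to 0.44 over fits that leave out 1 library. That on Mmp23 (0.21) was −0.49, adjusted p = 0.00271 without both. With a replicate block over all groups no call of a member changed. The block within Sox17 and SEG at day 7 changed 12 of 90 results, all now past the threshold. Its values stand beside the results above where given. The share of all tested genes called rose with that block in each comparison it covered. It was 67.2% (54.5% without the block) for Sox17 and 57.5% (44.3%) for SEG against control at day 7. For SEG against Sox17 at day 7 it was 56.7% (39.9%), and for day 7 against day 3 in Sox17 50.3% (29.5%). Mmp9 at day 3, and Timp4 in Sox17 and control, rest on few counts, which limits what could be detected there.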
